A study of Mus musculus with 2 samples.

Results

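Tumor cells in S phase were taken from single-cell RNA sequencing of EMT6 tumors, and they numbered 2110 of 13598 tumor cells and of 23657 sequenced cells in all. They were chosen by their transcript counts. A tumor cell had at least 200 genes, under 20% mitochondrial UMIs, at least 2000 UMIs and at least 2 UMIs of the keratins Krt8 and Krt18 together, with Tyrobp and Ptprc (immune cells) under 0.02% of its UMIs and Col5a2 (fibroblasts) under 0.02%. An S phase cell was a tumor cell with Rrm2, Clspn, Hells, Mcm5 and Mcm6 together at 0.03% of its UMIs or more, and Cenpf, Ube2c, Cdc20, Cenpa and Prc1 together under 0.05%. A UMI, or unique molecular identifier, tags 1 captured transcript, so a UMI count is a count of captured molecules.

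The tumors grew from EMT6, a line of mouse mammary carcinoma cells. In all, 200000 cells per mouse were placed under the skin of immunocompetent BALB/c mice, for which the study's animal methods name females of 5 to 6 weeks. Both groups received LLY-283, an inhibitor of the arginine methyltransferase PRMT5, at 50 mg/kg for 3 days on and 4 days off, and Olaparib, an inhibitor of the DNA repair enzyme PARP, at 50 mg/kg daily. The Olaparib + LLY-283 group received only these drugs, and the Combo group was given, besides them, an antibody against PD-1 (200 µg at intervals of 3 days). The Olaparib + LLY-283 library is called O+L below. Each group was 1 library from the tumors of 3 mice pooled, and no untreated tumor is among the samples analysed here. With 1 library per group, treatment, mice and library cannot be told apart, so no test was made and brackets hold 95% intervals that cover counting error only.

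Cells copy their genome once per cycle, in S phase. In G1 the helicase subunits Mcm2 to Mcm7 are loaded at origins with the help of Cdc6 and Cdt1, cyclin E and Cdk2 help to start replication, and the E2F transcription factors drive many of the genes that are needed. Rrm2 is the regulated subunit of ribonucleotide reductase, which makes deoxynucleotides, Clspn is the mediator of the replication checkpoint, Hells is a chromatin remodeler, and Mcm5 and Mcm6 are helicase subunits. The genes that limit the rule from above act later, in G2 and mitosis: Cenpf and Cenpa at the centromere, Ube2c and Cdc20 in the degradation of mitotic proteins, and Prc1 at the spindle midzone.

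The promoters of the genes behind the rule are shown because the E2F letters and the CHR letters (cell cycle genes homology region) divide them. Sequences are from RefSeq for GRCm38.p6, written 5′ to 3′ on the strand of the gene, and capitals mark the match. The E2F letters searched were TTTCCCGC, TTTGGCGC, TTTCGCGC and TTTGCCGC, and the CHR letters TTTGAA and TTCGAA, each on both strands, within 250 bases before to 50 bases after the gene's start. The start is that of RefSeq and can differ from the start in the gene positions given below. A match is a description of the sequence, not evidence of a bound site.
Clspn (chr4:126556965-126557009, plus strand): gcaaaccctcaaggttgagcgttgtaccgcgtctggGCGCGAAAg
Hells (chr19:38930892-38930971, plus strand): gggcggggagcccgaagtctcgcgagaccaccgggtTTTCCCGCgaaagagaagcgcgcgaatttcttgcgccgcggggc
Mcm5 (chr8:75109320-75109403, plus strand): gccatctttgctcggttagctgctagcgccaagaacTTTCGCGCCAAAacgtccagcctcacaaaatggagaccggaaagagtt
Mcm6 (chr1:128359709-128359851, minus strand): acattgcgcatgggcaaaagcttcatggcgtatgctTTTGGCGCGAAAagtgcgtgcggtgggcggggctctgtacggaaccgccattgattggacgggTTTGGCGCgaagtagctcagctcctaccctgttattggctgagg
Cdc20 (chr4:118437320-118437397, minus strand): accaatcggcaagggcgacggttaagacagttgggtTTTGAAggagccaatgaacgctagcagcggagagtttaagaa
Ube2c (chr2:164769864-164769941, plus strand): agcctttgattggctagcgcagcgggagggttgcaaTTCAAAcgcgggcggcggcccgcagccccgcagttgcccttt
The E2F letters were found in 4 of the 5 S rule genes, those shown here, and in 0 of the 5 G2/M rule genes. The CHR letters were found in 5 of the 5 G2/M rule genes and in 0 of the 5 S rule genes. Over all 27025 promoters, 2.32% held the E2F letters and 19.4% the CHR letters. In Mcm5 and Mcm6 adjoining matches overlap, and Rrm2 held none of the E2F letters in this window.

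The O+L library held 16115 cells and 147214934 UMIs, and the Combo library 7542 cells and 162522700 UMIs. The S phase cells numbered 1668 of 10771 tumor cells and 442 of 2827 tumor cells, respectively, and carried 20247886 and 24885413 UMIs. The libraries differed in depth: an S phase cell had a median of 10600 UMIs and 3238.5 genes in the O+L library, and of 56828.5 UMIs and 6965 genes in the Combo library. Within each library, S phase cells were deeper than the other tumor cells, by 1.08 and 1.23 times in median UMIs, and than the tumor cells below both thresholds, by 1.31 and 1.42 times. They were shallower than the tumor cells past both thresholds, at 0.85 and 0.90 times. Against cells past the G2/M threshold only, the ratio was 0.91 in the O+L library and 1.09 in the Combo library. The libraries share 39 cell barcodes, and 1 of these is an S phase cell in both. No gene count below differed by over 1.5 times without these barcodes.

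The values that chose the cells are given first, as a description. Hells was the most abundant of the 5 genes in CPM (UMIs scaled to 1000000 UMIs of the cells summed), at 227 [221 to 234] in S phase cells and 78.9 [77.3 to 80.6] in other tumor cells of the O+L library. In the Combo library it was at 285 [279 to 292] and 94.8 [93.0 to 96.6]. Mcm5 (chromosome 8, 75109569 to 75128439) was at 130 and 47.5 CPM in the first library and at 146 and 49.4 CPM in the second. Mcm6 (chromosome 1, 128331590 to 128359664) was at 115 and 38.3 CPM, and at 130 and 40.8 CPM. Rrm2 was at 129 and 58.6 CPM and at 151 and 65.7 CPM, with the smallest ratio of the 5 genes (2.20 and 2.29 times). Clspn was the lowest, at 70.8 and 26.2 CPM and at 91.7 and 28.7 CPM. Of the rule UMIs of the S phase cells, Hells gave 33.8% and 35.5%, and Clspn 10.5% and 11.4%, so the make-up of the score was close in both libraries.

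Most members rested on several of the genes where the depth allowed it. All 5 genes were detected in 78.3% of the S phase cells of the Combo library, and in 22.8% of those of the O+L library. With a random draw of 5000 UMIs kept from every cell (thinning), these shares were 2.75% and 2.40%. Hells was detected in 67.2% and 65.3% of the thinned S phase cells of the Combo and O+L libraries, and in 13.3% and 13.1% of the thinned cells below both thresholds. Across the 442 Combo S phase cells, Rrm2 and Clspn had the highest correlation of any pair of rule genes (r = 0.61), and Hells and Mcm6 the lowest (r = 0.17), with library, depth and the rule itself shared by the points. Across the 1668 O+L S phase cells the same pairs had r = 0.25 and r = -0.06, again the highest and the lowest.

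**Figure D1:**
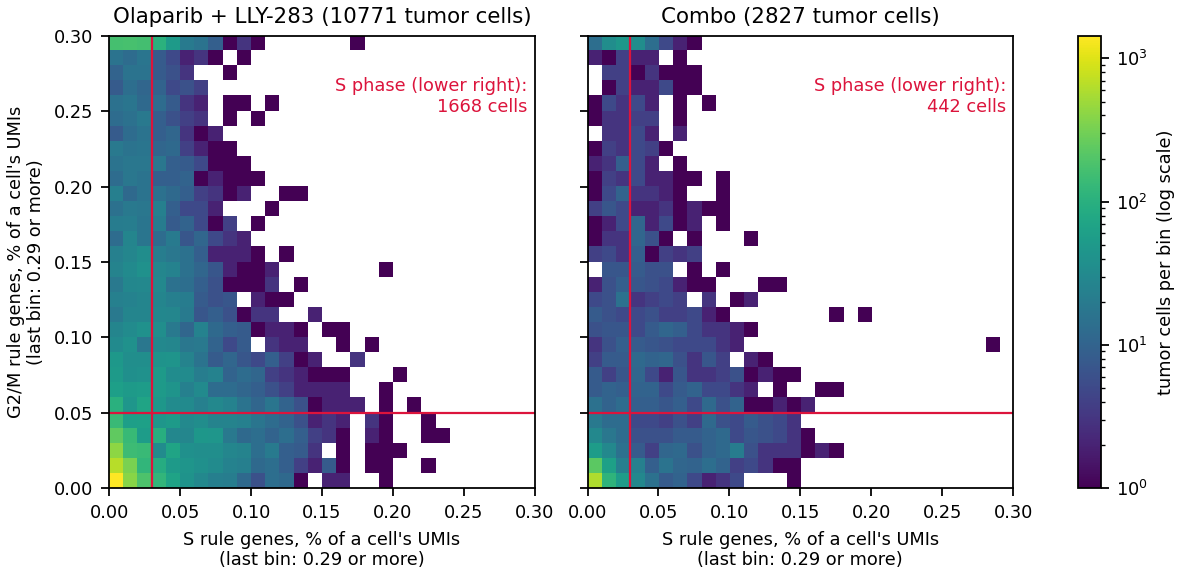
Tumor cells of each library by the share of their UMIs from the 5 S rule genes (horizontal axis, percent) and from the 5 G2/M rule genes (vertical axis, percent), with the number of cells per bin on a log color scale and the thresholds of 0.03% and 0.05% as red lines. The S phase cells, 1668 and 442, lie to the right of the vertical line and under the horizontal one, and no gap in either map sets them apart.

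Near the threshold, 380 S phase cells of the O+L library had 0.03 to 0.04% of their UMIs from the S rule genes, with a median of 3 such UMIs, and 563 cells just outside had 0.02 to 0.03%, with a median of 2. In the Combo library 73 cells lay just inside, with a median of 17 UMIs, and 120 just outside, with a median of 11. A call on 1 or 2 UMIs was made for 197 members (11.8%) of the first library and for 8 (1.81%) of the second. The Combo members were therefore called on more molecules each.

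Cells of another type were used to gauge the level that free RNA and miscalls can produce. Among cells with at least 1% of their UMIs from S100a8, S100a9 and Csf3r, genes of neutrophils, and with no UMI of Krt8 or Krt18, the 5 S rule genes summed to 121 [89.9 to 161] CPM in 512 cells of the O+L library and to 103 [88.4 to 120] CPM in 831 cells of the Combo library. The S phase cells were at 672 and 804 CPM and the tumor cells below both thresholds at 84.7 and 82.0 CPM, values that the rule itself sets, while the cells rich in neutrophil genes were not chosen on these genes. Of the 370 such Combo cells with at least 2000 UMIs, at a median depth of 2371.5, 55 (14.9% [11.4 to 18.9]) passed the S rule, for which 1 UMI can be enough at that depth. Thinned to 2000 UMIs, 8.81% [6.22 to 12.3] of them passed, against 14.7% [13.4 to 16.0] of the Combo tumor cells thinned in the same way. In the O+L library 1 of 12 such cells passed. Whether some of the cells rich in neutrophil genes carry S phase transcripts of their own was not tested. Their G2/M rule genes summed to 359 [303 to 423] CPM in the O+L library and 254 [230 to 279] CPM in the Combo library. These sums were 253 and 254 CPM in S phase cells, and 153 and 118 CPM in tumor cells below both thresholds.

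The share of tumor cells in S phase, with all UMIs, was 15.5% [14.8 to 16.2] in the O+L library and 15.6% [14.3 to 17.0] in the Combo library. Thinned to 5000 UMIs, with 1283 and 56 shallower tumor cells left out, it was 16.2% [15.5 to 17.0] and 17.2% [15.8 to 18.6]. Thinned to 10000 UMIs, with 5409 and 132 cells left out, it was 17.3% [16.3 to 18.3] and 17.1% [15.7 to 18.6]. In each of these 3 pairs the intervals of the libraries overlapped, but they are intervals over the cells of 1 library each. The shares depend on the thresholds of the rule. At 5000 UMIs they were 36.6% and 36.6% with no G2/M limit, and 10.2% and 11.6% with an S threshold of 0.06%. Thinning also showed how far a call depends on depth. Of the Combo cells called S phase at 5000 UMIs, 65.0% were S phase cells with all UMIs, 15.9% passed both thresholds and 17.4% passed neither. Of the Combo S phase cells with enough UMIs, 70.8% kept the call at 5000 UMIs and 79.6% at 10000.

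The remaining tumor cells were divided by the same thresholds. Cells that passed both, S and G2/M, made up 20.8% [20.0 to 21.5] of the O+L tumor cells and 22.8% [21.3 to 24.4] of the Combo tumor cells. Cells past the G2/M threshold only made up 21.9% [21.1 to 22.7] and 15.7% [14.4 to 17.1], and cells below both 41.9% [40.9 to 42.8] and 45.8% [44.0 to 47.7]. By bands of UMIs per cell, which do not equalize the depth of the libraries within a band, the shares were as follows. Among cells with 10000 to 20000 UMIs the S phase share was 17.0% [15.9 to 18.2] in the O+L library and 9.15% [5.21 to 14.6] in the Combo library, and among those with 20000 to 50000 it was 16.0% [14.0 to 18.1] and 9.87% [8.26 to 11.7]. Below 10000 UMIs the intervals overlapped, at 13.1% [11.3 to 15.1] and 10.7% [4.03 to 21.9] for 2000 to 5000 UMIs, and at 14.6% [13.6 to 15.8] and 19.7% [11.5 to 30.5] for 5000 to 10000. Among the deepest cells, with 50000 UMIs or more, it was 6.67% (2 of 30 cells) and 21.8% [19.6 to 24.2]. The part of depth in these shares was not tested.

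**Figure D2:**
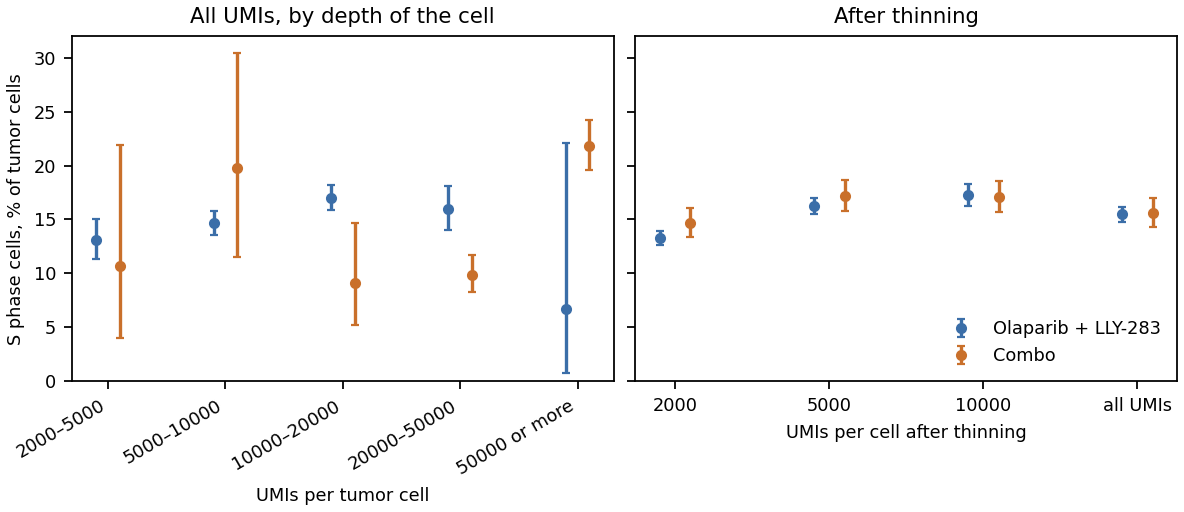
Share of tumor cells in S phase (percent of tumor cells, vertical axis) by the UMIs of the cell (left) and after thinning (right), with points for the O+L (blue) and Combo (orange) libraries and bars for exact 95% binomial intervals. The left panel shows 16.0% and 9.87% for the O+L and Combo cells with 20000 to 50000 UMIs, and the right panel shows intervals of the libraries that overlap at 5000 and 10000 UMIs and with all UMIs.

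The genes outside the rule were then compared between S phase cells and all other tumor cells, in each library on its own. In lists of replication and fork genes 57 of 125 members were higher in S phase cells and 0 lower, and in a list of G2 and mitosis genes 26 of 32 were lower, with a sign that the choice of cells sets. Of 11146 genes with at least 200 UMIs in the tumor cells of each library, 143 (1.28%) were at least 1.5-fold higher in both libraries and 116 (1.04%) at least 1.5-fold lower. Since the cells were chosen on 5 genes of this program, these are descriptions of the chosen cells. The ratios of the 2 libraries had r = 0.78 across genes, which are not independent replicates, and the median log2 ratio over all genes was 0.01 and -0.02. Ratios above 1 in both libraries were found for 37.8% of all genes and ratios below 1 in both for 39.2%. The 9 replication and fork lists are origin licensing, origin firing and helicase, polymerases, clamp with loader and Okazaki fragments, fork protection with RPA, deoxynucleotide supply, chromatin assembly, S phase checkpoint, and homologous recombination with Fanconi genes. Their 57 higher members were among the 143 higher genes, of which 76 lay outside all lists examined.

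The other tumor cells pool cells low in S phase genes with the cells past both thresholds, and the latter were close to the S phase cells in these lists. Of the 9 lists, origin licensing had the clearest lead over them in summed level, at 789 CPM in S phase cells and 630.4 CPM in cells past both thresholds of the O+L library, and at 907 and 685 CPM in the Combo library. Polymerases were at 431 and 413 CPM and at 503 and 442 CPM, and the clamp, fork protection and chromatin assembly lists were also higher in S phase cells of both libraries. The other 4 lists were lower in S phase cells of both. Origin firing and helicase genes were at 377 and 394 CPM and at 418 and 423 CPM, deoxynucleotide supply at 1943 and 1994 CPM and at 2113 and 2135 CPM, the S phase checkpoint at 462 and 540 CPM and at 499 and 593 CPM, and homologous recombination and Fanconi genes at 409 and 439 CPM and at 511 and 520.4 CPM.

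Among the genes that license origins, 9 of 14 were higher in both libraries, and all 14 had ratios above 1 in both (median log2 ratio 0.86 in the O+L library and 1.06 in the Combo library). Cdc6, the helicase loader (chromosome 11, 98907801 to 98923940), was at 27.0 [24.8 to 29.3] CPM in S phase cells and 5.11 [4.69 to 5.56] in other tumor cells of the first library, and at 33.1 [30.9 to 35.5] and 4.85 [4.46 to 5.26] in the second. Its intervals lay apart in both libraries, at ratios of 5.27 and 6.83 times. Mcm3, a helicase subunit like the rule genes, was at 87.7 and 33.4 CPM and at 110 and 34.7 CPM. Mcm7 was at 118 and 63.5 CPM and at 123 and 51.9 CPM, and the origin recognition subunit Orc6 at 118 and 66.9 CPM and at 124 and 61.1 CPM. Orc5, another origin recognition subunit, had the smallest ratio of the list, at 7.26 and 6.99 CPM and at 9.44 and 8.47 CPM.

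Of the genes that fire origins and build the active helicase, 8 of 13 were higher. Mcm10, which acts as the helicase starts to unwind, was at 19.8 and 8.02 CPM in S phase and other tumor cells of the O+L library and at 22.6 and 7.13 CPM in the Combo library. Gins2, a GINS subunit of the active helicase, was at 66.7 and 35.6 CPM and at 73.8 and 33.0 CPM. Gins4 is also a GINS subunit and stayed under the fold, at 41.9 and 32.8 CPM and at 39.5 and 30.3 CPM. Topbp1, a scaffold of origin firing and of checkpoint signaling, was at 83.9 and 53.2 CPM and at 97.2 and 52.2 CPM. Dbf4, the activating subunit of the Cdc7 kinase, was the exception in direction, at 65.4 and 78.9 CPM and at 63.9 and 74.4 CPM, with 117 and 122 CPM in the cells past the G2/M threshold only. Its mean log2 ratio, -0.24, was 0.04 with an S threshold of 0.06% and 1.51 against only the cells below both thresholds.

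At the fork, 6 of 12 polymerase genes, 7 of 16 genes of the clamp, its loader and Okazaki fragments, and 5 of 6 genes of fork protection and RPA were higher, and none of these 34 was 1.5-fold lower in both libraries. The primase subunit Prim1 was at 38.5 and 20.5 CPM in S phase and other tumor cells of the O+L library and at 50.8 and 22.0 CPM in the Combo library. Pold4, a small subunit of polymerase delta, lay the other way, at 100.2 and 108 CPM and at 91.6 and 104 CPM. Pcna, the sliding clamp (chromosome 2, 132249162 to 132253314), was at 202 [196 to 208] and 106 [104 to 108] CPM and at 211 [206 to 217] and 93.3 [91.6 to 95.1] CPM, or 1.91 and 2.26 times. The nuclease and helicase Dna2 was lower in level, at 6.67 and 2.65 CPM and at 9.24 and 2.42 CPM. The fork protection gene Timeless was at 11.3 and 4.37 CPM and at 17.3 and 5.66 CPM, and its partner Tipin at 117 and 71.5 CPM and at 125 and 66.4 CPM. Rpa2, a subunit of the complex that coats single-stranded DNA, was at 46.1 and 19.3 CPM and at 49.4 and 17.2 CPM, while Rpa3 of the same complex stayed under the fold, at 65.0 and 55.7 CPM and at 80.8 and 66.8 CPM.

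Of the genes of deoxynucleotide supply, 3 of 14 were 1.5-fold higher in both libraries, although 13 of 14 had ratios above 1 in both. Dut, which clears dUTP, was abundant in all tumor cells, at 561 and 442 CPM in S phase and other tumor cells of the O+L library and at 520 and 399.8 CPM in the Combo library. Thymidylate synthase (Tyms) was at 133 and 106 CPM and at 151 and 106 CPM. Rrm2b, a form of the small reductase subunit that p53 can induce, was the member below 1, at 9.88 and 11.5 CPM and at 11.0 and 15.0 CPM.

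Chromatin assembly genes were higher in 8 of 12 cases, and all 12 had ratios above 1 in both libraries. Chaf1b, a subunit of the chromatin assembly factor CAF-1, was at 38.8 and 15.7 CPM in S phase and other tumor cells of the O+L library and at 39.3 and 13.5 CPM in the Combo library. The histone chaperone Nasp was at 254 and 153 CPM and at 298 and 156 CPM. Slbp, which binds the end of histone mRNAs, was at 189.6 and 115 CPM and at 171 and 106 CPM. The chromatin ATPase Atad2 was at 165 and 84.0 CPM and at 201 and 93.3 CPM.

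Of 26 clustered histone genes with enough UMIs, 0 were 1.5-fold higher in both libraries, where 1.28% of all genes were, and 3 were lower, where 1.04% were, with a median log2 ratio of -0.20 and -0.09. Their summed level was 748 CPM in S phase cells and 747 CPM in other tumor cells of the O+L library, and 1215 and 1034 CPM in the Combo library. The cells past both thresholds had the highest sum, 1378 and 2176 CPM, and the cells below both the lowest, 223 and 197 CPM. Hist1h2ap, the most abundant, was at 368 and 355 CPM and at 699 and 529 CPM. Many replication-dependent histone mRNAs lack a poly(A) tail and have near-identical copies, so their capture and counting are uncertain here.

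Of the genes that control entry into S phase, 7 of 21 were higher. The E cyclins led: Ccne2 was at 28.0 [25.7 to 30.4] and 7.72 [7.21 to 8.27] CPM in S phase and other tumor cells of the O+L library, and at 21.1 [19.4 to 23.0] and 4.75 [4.37 to 5.17] CPM in the Combo library. Ccne1 was at 47.7 and 17.8 CPM and at 52.5 and 16.9 CPM. Cyclin D1 (Ccnd1) and its kinase Cdk4, which act earlier in G1, were abundant and close to even, at ratios with log2 values of 0.22 and 0.22 for Ccnd1 and 0.19 and 0.27 for Cdk4. The inhibitor Cdkn1b (p27) was lower without reaching the fold in both libraries, at 29.7 and 39.8 CPM and at 34.8 and 51.6 CPM.

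Checkpoint and repair genes followed in part. In the S phase checkpoint list 2 of 12 genes were higher, among them Dtl, part of a ubiquitin ligase that acts at the fork, at 30.9 and 11.9 CPM and at 32.8 and 11.6 CPM in S phase and other tumor cells of the 2 libraries. In homologous recombination and the Fanconi pathway 9 of 26 were higher. Exo1, the nuclease that resects DNA ends, was at 14.3 and 4.83 CPM and at 15.3 and 4.42 CPM. Fancd2 was at 4.59 and 4.87 CPM and at 4.42 and 5.65 CPM, but its direction turned with the processing: its mean log2 ratio was -0.21, and 0.50 with each cell thinned to 5000 UMIs.

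In mismatch and base excision repair 3 of 13 genes were higher. Ung, which removes uracil from DNA (chromosome 5, 114130386 to 114139323), had the highest ratio in the Combo library of any gene named here, at 26.8 [24.8 to 28.9] CPM in S phase cells and 3.29 [2.97 to 3.63] in other tumor cells, or 8.14 times. In the O+L library it was at 19.1 [17.2 to 21.1] and 3.78 [3.42 to 4.16] CPM, or 5.05 times. Ung was detected in 9.73% and 9.63% of S phase cells thinned to 5000 UMIs in the O+L and Combo libraries, and in 1.56% and 1.80% of the other tumor cells. With all UMIs it was detected in 18.2% and 59.5% of the S phase cells. Outside all lists, Wdr76 was among the 10 genes that were highest by the smaller of their 2 log2 ratios, at 15.0 and 5.47 CPM and at 15.1 and 5.75 CPM.

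The targets of the drugs differed in their ratios. Parp1, the main target of Olaparib, was at 52.0 [48.9 to 55.2] CPM in S phase cells and 35.9 [34.8 to 37.1] in other tumor cells of the O+L library, and at 71.0 [67.7 to 74.4] and 43.1 [42.0 to 44.3] in the Combo library. It passed the fold in the Combo library, at 1.65 times, and not in the other, at 1.45 times, and a difference between these ratios was not tested. Prmt5, the target of LLY-283, was at 39.9 [37.2 to 42.8] and 35.8 [34.7 to 36.9] CPM and at 42.4 [39.9 to 45.1] and 37.0 [35.9 to 38.1] CPM. Of 14 genes of the PRMT5 complex and other arginine methyltransferases, 0 passed the fold in either direction in both libraries, with medians of 0.16 and 0.24 on the log2 scale. With 1.28% and 1.04% of all genes past the fold, this count says nothing particular of them. Wdr77, the PRMT5 partner, was at 71.8 and 56.6 CPM and at 89.7 and 61.7 CPM.

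**Figure D3:**
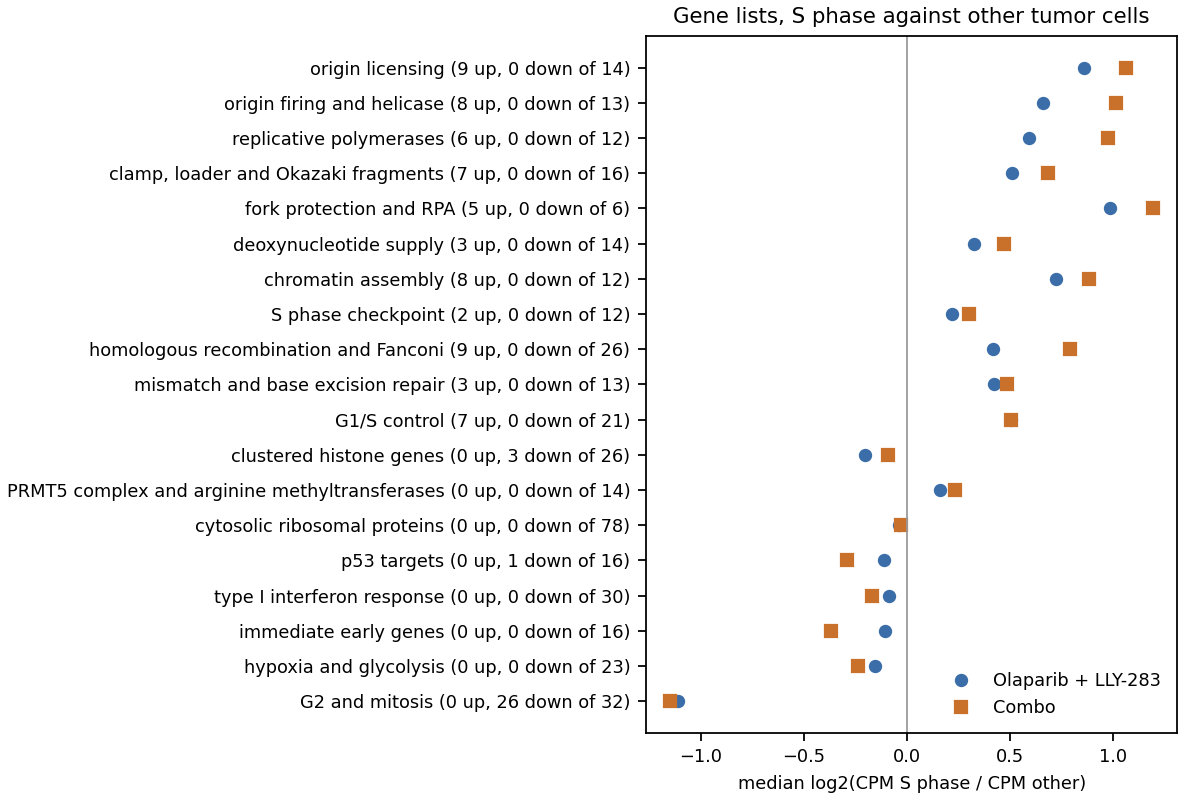
Median over each gene list of the log2 ratio of CPM in S phase cells to CPM in other tumor cells (horizontal axis), for the O+L (blue circles) and Combo (orange squares) libraries, with the number of genes at least 1.5-fold higher (up) and lower (down) in both libraries beside each name. Fork protection and RPA lies at 0.98 and 1.20, G2 and mitosis at -1.11 and -1.15, and ribosomal proteins at -0.04 and -0.03.

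Genes of G2 and mitosis outside the rule were 1.5-fold lower in 26 of 32 cases, and all 32 had ratios below 1 in both libraries. The rule has an upper limit on 5 genes of this program, and the other tumor cells hold the cells past that limit, so the sign of this contrast is set by the choice of cells. Nusap1, a spindle protein, was at 15.2 and 74.7 CPM in S phase and other tumor cells of the O+L library and at 11.1 and 60.6 CPM in the Combo library. Mki67, the common marker of cycling cells, was at 59.6 and 129 CPM and at 60.1 and 140.1 CPM. Cdk1 and Top2a, which are already expressed in S phase, were closer to even, at log2 ratios of -0.32 and -0.09 for Cdk1 and -0.46 and -0.22 for Top2a, and their means were 0.06 and 0.02 with an S threshold of 0.06%. Against only the cells below both thresholds the order was the opposite: 0 of the 32 genes were 1.5-fold lower, and Mki67 was at 18.2 and 11.0 CPM in those cells. Outside this list, Igfbp3, which binds insulin-like growth factors, was among the 10 lowest ratios, at 0.741 and 2.85 CPM and at 0.924 and 3.48 CPM, on 15 and 23 UMIs in S phase cells. Its mean log2 ratio, -1.86, was -2.71 as a mean over cells and -3.34 with each cell thinned to 5000 UMIs.

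Lists without a direct role in replication had counts past the fold near those of all genes, 1.28% higher and 1.04% lower. These counts past the fold say nothing particular of the lists. Ratios below 1 in both libraries were found for 39.2% of all genes. Their share was larger in the interferon, hypoxia and glycolysis, immediate early and ribosomal protein lists. Of 30 genes of the type I interferon response, 0 passed the fold, and 21 had ratios below 1 in both libraries. Isg15, an interferon-induced ubiquitin-like protein, was at 225 and 257 CPM in S phase and other tumor cells of the O+L library and at 214 and 274 CPM in the Combo library. Of 23 genes of hypoxia and glycolysis, 0 passed and 22 were below 1 in both, and their summed level was 16730 and 17912 CPM and 17746 and 19592 CPM. Car9, a hypoxia-induced carbonic anhydrase, had the lowest ratio of that list, at 23.2 and 31.1 CPM and at 15.1 and 29.7 CPM. Of 16 p53 targets, 1 was lower, Trp53inp1, which promotes p53 activity, at 4.25 and 6.66 CPM and at 3.09 and 6.95 CPM. Of 16 immediate early genes 0 passed and 15 were below 1 in both, with median log2 ratios of -0.11 and -0.37 and sums of 5957 and 6241 CPM and of 4223 and 5254 CPM. Of 3 short lists of tumor cell states 0 genes passed, and the summed levels of those states were 682 and 681 CPM (Sox9, Areg, Bdnf, Adm), 641 and 675 CPM (Mgp, Omd, Ogn) and 321 and 325 CPM (Klk10, Cst6, Sfn) in S phase and other tumor cells of the O+L library. In the Combo library they were 545 and 581 CPM, 484 and 617 CPM, and 282 and 261 CPM, and the median log2 ratio of the Mgp, Omd and Ogn state was -0.07 and -0.72 in the 2 libraries. Of 78 ribosomal protein genes 0 passed the fold, 54 were below 1 in both libraries and 14 above, with median log2 ratios of -0.04 and -0.03.

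The S phase cells were checked for other cell types. The summed level of 5 epithelial tumor markers was 871 CPM in S phase cells and 965 CPM in other tumor cells of the O+L library, and 889 and 883 CPM in the Combo library, with Krt8 the most abundant and Epcam at 54 and 83 UMIs in the S phase cells. The 11 macrophage markers summed to 195 and 201 CPM and to 242 and 257 CPM, with Lyz2 the most abundant, and the 7 neutrophil markers to 215 and 203 CPM and to 224 and 254 CPM, with S100a9 the most abundant. The 7 fibroblast markers summed to 875 and 910 CPM and to 895 and 1042 CPM, of which Col3a1 and Col1a1 gave most and Thy1 had 22 and 10 UMIs. The 6 T and NK cell markers summed to 1.43 and 2.09 CPM and to 2.41 and 1.93 CPM, and Cd3g had 0 and 3 UMIs in S phase cells. The 5 endothelial markers summed to 10.5 and 9.54 CPM and to 8.56 and 8.56 CPM, and the 4 muscle markers to 16.2 and 18.4 CPM and to 13.2 and 16.5 CPM. Lum, a fibroblast proteoglycan, was the marker that passed the fold, lower at 1.88 and 3.11 CPM and at 1.81 and 3.01 CPM. None of these sums was higher in S phase cells than in other tumor cells of both libraries. By the highest Scrublet doublet scores, 15.6% and 4.52% of the S phase cells were marked as possible doublets, against 13.1% and 4.11% of the other tumor cells.

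The S phase cells varied among themselves along the G2/M genes. The rule allows up to 0.05% of UMIs from these genes, and the members were divided into 4 bands below that limit. In the cells rich in neutrophil genes the G2/M rule genes summed to 359 and 254 CPM in the O+L and Combo libraries. The S phase cells were at 253 and 254 CPM, and the part of free RNA in the bands was not tested. In the Combo library, Hist1h2ap was at 77.9 CPM in the 79 members under 0.01%, at 191 CPM in the 108 members of 0.01 to 0.02%, at 564 CPM in the 103 members of 0.02 to 0.03% and at 1353 CPM in the 152 members of 0.03 to 0.05%. Hist1h1b, a linker histone gene, was at 25.5, 70.5, 198 and 459.5 CPM in the same bands. In the O+L library Hist1h2ap was at 128, 236, 439 and 498 CPM, in 354, 358, 325 and 631 members. The order of the bands was the same in both libraries for both histone genes.

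Cdc6, Ccne2 and Pcna differed less between the bands. Cdc6 was at 22.8, 35.7, 41.9 and 29.9 CPM in the Combo bands, and at 24.4, 28.8, 29.5 and 25.8 CPM in those of the O+L library, highest in the third band of both. Ccne2 was at 11.0, 14.7, 25.3 and 26.6 CPM, higher in each Combo band than in the one before, and at 19.3, 27.7, 35.5 and 27.8 CPM. The licensing gene Mcm3 was at 88.3, 101, 117 and 120.5 CPM in the Combo bands and at 71.2, 89.6, 88.0 and 93.0 CPM in the others. Pcna ranged from 161 to 237 CPM in the Combo bands and from 170.1 to 219 CPM in the others. Deeper cells lay in the higher bands, with median UMIs of 50804 in the first Combo band and 62913 in the last. In the O+L library these medians were 8268.5 and 12178. The part of depth in the differences between bands, those of the histone genes included, was not tested.

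**Figure D4:**
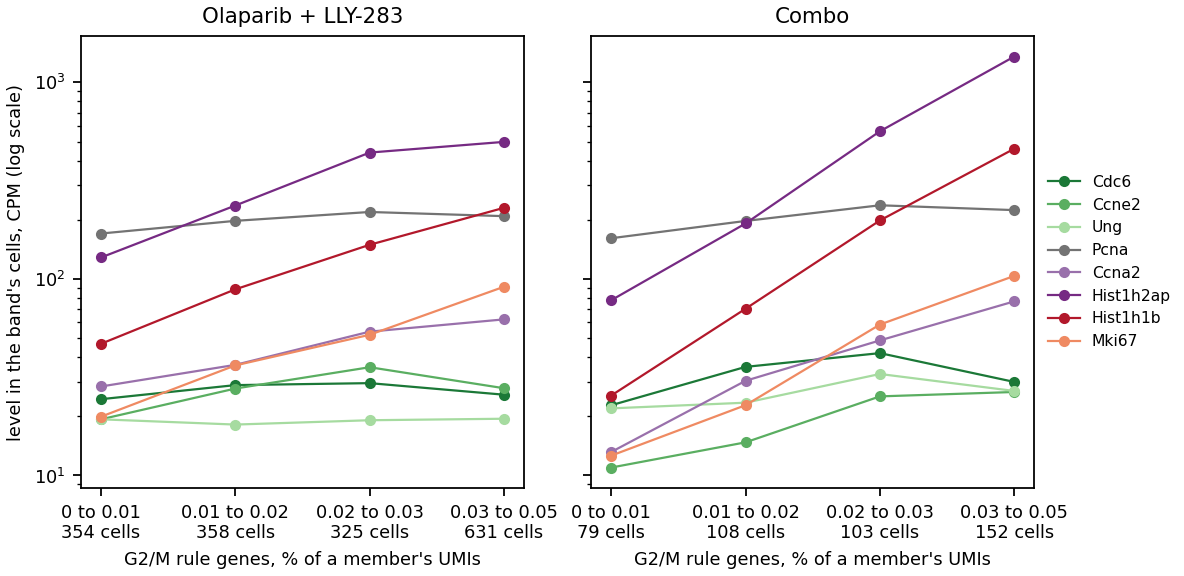
Levels of 8 genes (CPM, log axis) in S phase cells divided into 4 bands by the share of their UMIs from the G2/M rule genes (horizontal axis, percent), with the number of cells under each band, for the O+L library (left) and the Combo library (right). The histone genes Hist1h2ap and Hist1h1b are higher in each band than in the one before it, and Cdc6 is highest in the third band, at 29.5 and 41.9 CPM.

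The members also differed in which rule gene led. This was read only in members with at least 3 rule UMIs. Mcm5 and Mcm6 gave over 50% of the rule UMIs in 313 cells of the O+L library and in 47 of the Combo library. These cells were 18.8% and 10.6% of all S phase cells of their library. In these cells Hist1h2ap was at 235 and 60.3 CPM, against 414 and 764 CPM in the members that no such gene led, and Ccna2, the cyclin of S phase and G2, was at 39.3 and 16.5 CPM against 53.1 and 53.1 CPM. Cdc6 was also lower in them, at 17.1 and 15.2 CPM against 30.4 and 35.0 CPM. Rrm2 alone gave over 50% in 39 and 2 cells. Members with under 3 rule UMIs, 197 and 8 cells, had medians of 4830 and 4118.5 UMIs. The 197 O+L cells had Cdc6 at 8.87, Ccne2 at 12.2 and Hist1h2ap at 116 CPM, against 30.4, 30.5 and 414 CPM in the members that no such gene led and 5.11, 7.72 and 355 CPM in the other tumor cells. Without the members under 3 rule UMIs the S phase share, with all UMIs, was 13.7% of the O+L and 15.4% of the Combo tumor cells, in place of 15.5% and 15.6%.

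The E2F letters were found in the promoters of 28 (25%) of the 112 genes of the 143 that matched a RefSeq promoter, and in 4.50% of the 8474 matched genes of all those compared. The 9 replication and fork lists held them in 24.0% of 100 matched genes. The CHR letters were found in 13.4% of the promoters of the higher genes and in 13.5% of those of all genes compared, and in 76.9% of the 26 matched genes of the G2 and mitosis list. Of 2 more higher genes examined, Pcna held no E2F letters in this window, and Cdc6, the gene with the highest mean ratio of the licensing list, held the E2F letters as the reverse complement of those listed, here in capitals.
Cdc6 (chr11:98907977-98908056, plus strand): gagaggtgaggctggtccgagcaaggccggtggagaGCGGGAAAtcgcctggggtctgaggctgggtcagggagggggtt

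The S phase cells of the Combo library, whose mice also received the anti-PD-1 antibody, were then set beside those of the O+L library. Of 9505 genes with at least 200 UMIs in the S phase cells of both libraries together, 19 (0.200%) were at least 2-fold higher in the Combo library and 20 (0.210%) at least 2-fold lower. These counts depend on the processing: they were 64 and 72 with each cell thinned to 5000 UMIs (13 and 13 shared). A filter of 50 UMIs gave 86 and 65, and one of 1000 UMIs gave 4 and 5. Each group is 1 library, so a ratio describes these libraries. The 19 and 20 genes tended to differ in the other tumor cells as well. Of the 19, 16 were at least 2-fold higher there and all 19 were higher. Of the 20, 6 were at least 2-fold lower there and all 20 were lower. The log2 ratio in S phase cells exceeded that in other tumor cells by 1 or more for 0 genes, and was lower by 1 or more for 2 genes. These were Mmp3 and Tec, a kinase of immune cells at 6.47 and 3.46 CPM in S phase cells and at 5.92 and 6.61 CPM in other tumor cells, named after its values were seen.

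Il24, a cytokine of the IL-10 family (chromosome 1, 130882074 to 130887454), had the highest ratio, at 3.36 [2.61 to 4.26] CPM in the O+L S phase cells and 28.3 [26.3 to 30.5] CPM in the Combo S phase cells, or 8.33 times. In other tumor cells it was at 3.07 and 21.7 CPM. It was detected in 1.20% and 8.49% of S phase cells thinned to 5000 UMIs, and in 2.64% and 30.1% with all UMIs. AW112010, a gene known for its induction by interferon gamma, was at 7.90 [6.73 to 9.23] and 42.2 [39.7 to 44.9] CPM in S phase cells and at 7.61 and 42.3 CPM in other tumor cells. Etv1, an ETS transcription factor, was at 2.86 and 14.0 CPM in S phase cells. Hgf, a growth factor, was at 2.32 and 7.63 CPM, and Serpinb9b, a serine protease inhibitor gene, at 7.16 and 22.6 CPM. Gbp5, a guanylate-binding protein induced by interferon gamma, was at 5.38 and 15.1 CPM, but 5 cells held 53.2% of its UMIs in the Combo library, and without the 5 members with the most UMIs of each library its log2 ratio was 0.85, in place of 1.48.

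The genes lower in the Combo S phase cells were led by Mgp, the matrix Gla protein, at 231 [224 to 237] CPM in the O+L library and 65.6 [62.4 to 68.8] CPM in the Combo library. In other tumor cells it was at 242 and 113 CPM. Mmp3, a matrix metalloproteinase, was at 8.30 and 2.65 CPM in S phase cells, with 50.0% and 56.1% of its UMIs in 5 cells of each library. Klk10, a kallikrein-related peptidase, was at 17.1 and 6.71 CPM, and Klf2, a transcription factor, at 112 and 45.0 CPM. Pgf, the placental growth factor, was at 9.73 and 3.94 CPM and Igf1 at 7.11 and 2.81 CPM, with 35.7% and 38.6% of their Combo UMIs in 5 cells. Of the immediate early genes, 2 of 16 were 2-fold lower (Klf2 and Egr2), where 0.210% of all genes were, and the list's median log2 ratio was -0.59 in S phase cells and -0.31 in other tumor cells. Fos was at 1056 and 577 CPM in S phase cells and at 1135 and 814 CPM in other tumor cells. Dissociation of tissue is known to induce these genes, and its part here was not tested.

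In the 9 lists of replication and fork genes, 0 of 121 genes passed 2-fold in either direction, where 0.200% and 0.210% of all genes did, so this count says nothing particular of them. The median log2 ratio of Combo to O+L in S phase cells ranged over the 9 lists from 0.09 for the S phase checkpoint to 0.40 for polymerases, against 0.02 for G1/S control, which is not among the 9, and 0.04 over all genes compared. In other tumor cells it was 0.02 and 0.10 for these lists. Origin licensing was at 0.18 in S phase cells and 0.01 in other tumor cells. Ccne2 lay the other way, at 28.0 [25.7 to 30.4] and 21.1 [19.4 to 23.0] CPM in S phase cells. Members called on 1 or 2 rule UMIs were 11.8% of the O+L and 1.81% of the Combo S phase cells. The S rule genes themselves summed to 672 CPM in the O+L and 804 CPM in the Combo S phase cells. The part of this unequal calling in the list medians was not tested. Cdkn1a, the p21 inhibitor of cyclin-dependent kinases, was at 175 [169 to 181] and 108 [104 to 112] CPM in S phase cells and at 173 [170 to 175] and 138 [136 to 140] CPM in other tumor cells. Of the type I interferon genes 0 of 27 passed 2-fold, with a median of -0.03 in S phase cells and 0.20 in other tumor cells. Of other cell types, macrophage markers summed to 195 and 242 CPM and fibroblast markers to 875 and 895 CPM in the S phase cells of the O+L and Combo libraries, and their part in these ratios was not tested.

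**Figure D5:**
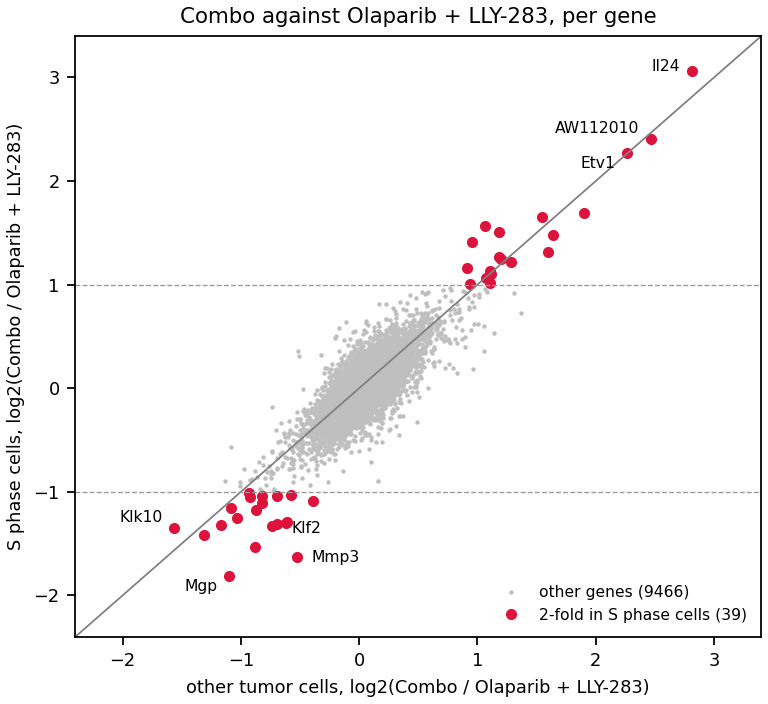
Log2 ratio of CPM in the Combo library to CPM in the O+L library for 9505 genes, in other tumor cells (horizontal axis) and in S phase cells (vertical axis), with genes past 2-fold in S phase cells in red and the line of equal ratios in gray. Of the red genes, 19 lie above the upper dashed line and 20 under the lower one, and Il24 is the highest at 3.06 and Mgp the lowest at -1.81.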

How the data were processed

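The authors deposited 1 matrix of raw UMI counts per library (genes by cells, not normalized), aligned to mm10 per the submitters' processing notes. The study's methods and the labels name Cell Ranger. The header of the matrices gives version 6.1.2, which is not the version stated in the methods. Cells and classes were set from these counts by the thresholds given above. UMIs of each gene were summed over a class and divided by the UMIs of the class (CPM), with 1 UMI added to each sum for ratios. Genes with at least 200 UMIs were compared, and 1.5-fold in both libraries (S phase against other tumor cells) or 2-fold (Combo against Olaparib + LLY-283) was called. CPM intervals are exact Poisson and shares exact Clopper-Pearson intervals, at 95%. Thinning drew UMIs at random without replacement, with 20 draws for shares and 1 for detection. The ratios and the thinning were tried on simulated counts, which did not test the choice of the S phase cells. Doublets were kept in the main results: Scrublet (scanpy 1.11.5) called 0 cells at its automatic threshold, so the highest scores up to 0.8% per 1000 cells, 2055 and 284 cells, were left out as an alternative.

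The members and the gene lists were chosen with earlier results of these data known. Named genes were the rule genes, the 3 most abundant members and the highest and lowest ratio of each list, the 10 genes with the largest ratios in each direction of both comparisons (for S phase cells, by the smaller log2 ratio of the 2 libraries), and Prmt5, Parp1, Pcna, Mki67, Cdkn1a and Gins4. Ccna2, Tec, Hspa1a, Prl2c2 and the markers of other cell types were named after their values were seen. Gene positions are from GENCODE M21 and promoters from RefSeq GRCm38.p6, and the gene starts of these sources can differ, as for Cdc6. Where a symbol was listed more than once, the entry with more UMIs was used in the lists. Computing used scipy 1.17.1, matplotlib 3.10.9, pandas 2.3.3 and numpy 2.4.6 under Python 3.11.15. Alternatives changed the thinning, the S threshold, the G2/M limit, the comparison cells, the doublets, the gene filter, the fold, the scaling and the shared barcodes. Some items are not reported here.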

Additional observations from a re-analysis of the deposited data

Results flagged for a closer look

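Of the 11146 genes compared between S phase and other tumor cells, 2 passed 1.5-fold in opposite directions in the 2 libraries. Hspa1a, an inducible heat shock protein, had a log2 ratio of -0.64 [-1.04 to -0.29] in the O+L library and 0.67 [0.35 to 0.96] in the Combo library, on 68 and 120 UMIs in S phase cells. Prl2c2, a proliferin gene with near-identical copies, had -0.59 [-1.30 to -0.03] and 0.81 [0.37 to 1.21], on 25 and 67 UMIs. Each library is 1 sample, and the difference between the libraries was not tested.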

How the results depend on the processing

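No paired analysis was possible because each group is 1 library and no result comes from a test. Left-out replicates could not be tried for the same reason. The shares of S phase cells in the O+L and Combo libraries, 16.2% and 17.2% at 5000 UMIs, were 13.3% and 14.7% at 2000 UMIs, 17.3% and 17.1% at 10000, and 15.5% and 15.6% with no thinning, or 15.7% in the Combo library among cells of at least 5000 UMIs. A threshold of 0.06%, which at 5000 UMIs is the same as at least 3 rule UMIs, gave 10.2% and 11.6%, and no G2/M limit gave 36.6% and 36.6%. With at least 3 rule UMIs the ratio of median UMIs in the O+L library was 1.21 in place of 1.08, since such members need more depth.

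Of the 143 higher and 116 lower genes in S phase cells, the counts were 778 and 183 against only the cells below both thresholds (137 and 22 shared), where 99 members of the 9 replication lists were higher and 0 members of the G2 and mitosis list lower. A 2-fold limit gave 39 and 45, with 23 and 17 members of those lists. A threshold of 0.06% gave 306 higher genes, a gene filter of 1000 UMIs 85, and a filter of 50 UMIs 175 lower genes. Against the cells below both thresholds, 30 of the 155 named genes changed sign: the 5 G2/M rule genes, 15 genes that had not passed the fold, and 10 that had, to mean log2 ratios of 0.81 (Arhgap19), 1.64 (Aspm), 1.10 (Cenpe), 0.76 (Depdc1b), 0.53 (Fam83d), 1.23 (Hmmr), 1.53 (Kif2c), 2.08 (Mki67), 1.41 (Nusap1) and 0.18 (Pif1). Under the other alternatives, named genes changed sign in 12 cases (thinning), 12 (0.06%), 11 (mean over cells) and 3 (doublet scores), and none of these had passed the fold.

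The 19 higher and 20 lower genes of the Combo S phase cells became 64 and 72 when each cell was thinned to 5000 UMIs (13 and 13 shared), 86 and 65 with a filter of 50 UMIs, and 4 and 5 with one of 1000 UMIs. Thinning leaves fewer UMIs per gene. The other alternatives left each count within 1.5 times. Of the 20 named Combo genes 0 changed sign under any alternative, but thinning to 5000 UMIs moved the ratios of 10 of them. The planned Scrublet alternative gave no calls and was replaced by the one on scores, which, like that on shared barcodes, was chosen after seeing the data.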
